A study of Homo sapiens with 4 samples.

Results

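A set of 33 lysosomal genes was followed across 12 cultures of microglia-like cells: 12 soluble hydrolases, 3 soluble cofactors, 6 membrane proteins, 3 transcription factors of the TFEB family, the autophagy receptor SQSTM1 and 8 subunits of the proton pump V-ATPase. The genes were taken by symbol from the gene tables of both libraries, and the set was chosen with earlier results of these data known. All 33 were found among the 36601 genes of the files, and all 33 were among the 15056 genes that passed the filter on low counts, with 183 to 83981 unique molecular identifiers (UMIs, each standing for 1 captured RNA molecule) per culture. The cells came from H9, a widely used established line of human embryonic stem cells. Per the labels' protocols, monocyte-like precursors collected on day 25 were seeded at 500000 cells per well and kept for 7 days in the microglia maturation medium that the labels call TIC.

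The 4 conditions had 3 cultures each. Ctrl cultures received the vehicles DMSO and PBS. Sema cultures received 2 μM semagacestat, a small-molecule inhibitor of the intramembrane protease γ-secretase, for 22 h together with PBS. LPS cultures received DMSO and, for the last 6 h, 200 ng/mL lipopolysaccharide, a bacterial ligand of Toll-like receptor signalling. SemaLPS cultures received both agents on the same schedule. All cells were detached with 5 μM actinomycin D, an inhibitor of transcription, and carried 1 of 12 hashtag antibodies that mark the culture. About 2000 cells per culture were pooled and divided between 2 libraries of 10x 3′ gene expression. The study asked how blocking γ-secretase affects gene expression in these cells, and whether a strong signal that does not depend on γ-secretase could override such an effect. All cultures came from 1 line. The series' design text calls the 3 cultures of a condition biological replicates, and the labels do not say what a culture number stands for, so each p-value is set only against how much these cultures varied, which may be technical.

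Lysosomes break down proteins, lipids, glycans and glycogen with hydrolases that work at acid pH. The V-ATPase builds up that acidity: its cytosolic V1 sector hydrolyses ATP and drives the membrane-embedded V0 sector, which carries protons into the lumen. TFEB and its relatives MITF, TFE3 and TFEC bind E-box motifs in the promoters of many lysosomal and autophagy genes, known as the CLEAR network. In microglia and macrophages, lysosomes digest material taken up by phagocytosis.

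Promoter windows from RefSeq (GRCh38.p14, 250 bases before to 50 bases after a start) were held for 23 of the 33 genes, in 34 windows. The genes without one were HEXA, MANBA, ASAH1, PSAP, LAMP2, ATP6V0D2, ATP6V1A, ATP6V1B2, ATP6V1C1 and ATP6V1H. The E-box core CACGTG, which reads the same on both strands, was in 1 window each of 7 genes, or 20.59% of the 34 windows, beside 7.26% of all 35116 windows of that length. The longer form TCACGTGA, which overlaps the first motif, was in windows of 5 of these 7 genes (14.71% against 0.98% of all windows). The core of the antioxidant response element, TGACNNNGC, searched on both strands, was in windows of 11 genes (32.35% against 13.35%). The stretch around the E-box nearest to the start is shown for each of the 7 genes. Their windows hold CACGTG, a form that the TFEB family binds. Other forms of the motif were not searched for, and windows without CACGTG may hold them. Each is 30 bases long, reads 5′ to 3′ on the gene's strand and has the E-box core in capitals, and the number given is how many bases before the start the core begins, so the core of LAMP1 spans its start.
GAA (chr17:80101538-80101567, plus strand, core 31 before the start): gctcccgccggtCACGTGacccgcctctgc
MCOLN1 (chr19:7522598-7522627, plus strand, core 14 before the start): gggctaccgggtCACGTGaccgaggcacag
LAMP1 (chr13:113297226-113297255, plus strand, core 1 before the start): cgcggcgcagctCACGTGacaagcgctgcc
CTSA (chr20:45891298-45891327, plus strand, core 25 before the start): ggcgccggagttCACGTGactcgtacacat
ATP6V0D1 (chr16:67481199-67481228, minus strand, core 59 before the start): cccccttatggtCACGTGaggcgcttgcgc
NEU1 (chr6:31862930-31862959, minus strand, core 126 before the start): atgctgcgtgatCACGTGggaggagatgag
ATP6V0B (chr1:43974909-43974938, plus strand, core 39 before the start): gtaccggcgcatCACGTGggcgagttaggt
The window of LAMP1 held 6 matches, and those of ATP6V0B, CTSA, GAA and MCOLN1 held 2 each. A match is a description of letters and not a binding site.

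Of 28943 barcodes, 14836 carried 1 hashtag and passed the filters on cells, 1054 to 1640 per culture, with 30006490 to 51072551 UMIs per culture. Median UMIs per cell were 27294 to 28176.5 without LPS and 29976 to 31354.5 with it. The summed level of 10 macrophage and microglia markers was 6748 to 8248 CPM (UMI counts scaled to a common library size) in every culture, and CSF1R, C1QA and TREM2 were detected in all 12. Markers of erythroid cells, megakaryocytes, granulocyte precursors, mast cells and pluripotent cells summed to at most 1.26 CPM, with 2 of 4 erythroid and 2 of 4 granulocyte genes at 0 in every culture. Fibroblast, neural and endothelial lists reached 14.53, 12.16 and 93.17 CPM, the last led by PECAM1, which macrophages also express. Known responders were read as a check on the labels: IL1B, a cytokine gene induced by LPS, stood at 87.6 to 98.8 CPM in Ctrl and 1910 to 2380 CPM in LPS cultures. HES1, a target of the γ-secretase substrate Notch, stood at 2.76 to 3.21 CPM in Ctrl and 1.4 to 1.74 CPM in Sema cultures (log2 −0.92, adjusted p = 0.0479). Dividing cells, counted as those with at least 3 UMIs over 8 cell-cycle genes, were 21.61 to 32.26% of Ctrl, 27.99 to 33.22% of Sema, 16.97 to 20.27% of LPS and 20.16 to 25.44% of SemaLPS cultures. The part of these shares in the differences was examined by leaving dividing cells out.

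LPS divided the lysosomal genes. Against Ctrl, 9 of the 33 rose and 17 fell past an adjusted p of 0.05 in edgeR's quasi-likelihood test, with SQSTM1 and TFEC moving up most and ATP6V0D2, MITF and NPC1 moving down most. Only these 5 were called with more than a 1.5-fold change; the other 21 called genes moved by less. The median log2 fold change of the 33 genes was −0.12, beside −0.02 over all genes tested. Of all 15056 genes, 59.1% were called (30.3% rose and 28.8% fell), so the count among the 33 stands in a background in which most genes changed. At an unadjusted p under 0.05 stood 26 of the 33 genes and 63.1% of all genes. With the culture number as a block, 10 rose and 19 fell, beside 65.2% of all genes (33% rose and 32.2% fell), and DESeq2 called 24, beside 23.1% of its genes higher and 20.7% lower. Cultures of the 2 conditions did not overlap for 9 genes that were higher and 15 that were lower with LPS, where the background was 32.3% higher and 31.1% lower.

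The split between rises and falls depended on how libraries were scaled. The CPM values are scaled with TMM (trimmed mean of M values, which sets the bulk of genes level between libraries), and the scaling factors were 1.0498 to 1.0916 without LPS and 0.91826 to 0.95138 with it. With library totals alone, the median of all genes moved to −0.22 and the split of the 33 genes became 3 rose and 24 fell, beside 16.4% and 46.6% of all genes. SQSTM1 (1.41), TFEC (0.71) and TFEB (0.22) still rose on that scale, whereas GLA, PSAP, ATP6V0B, ATP6V1A, ATP6V1B2 and ATP6V1H kept positive log2 fold changes of 0.01 to 0.12 and were not called. The rises of those 6 genes against Ctrl were therefore called relative to the bulk of genes and not relative to library totals. Both scales are relative, and median UMIs per cell were higher with LPS, so neither scale gives the change per cell. Since counts were summed over all cells of a culture, these values do not separate less RNA of a gene per cell from fewer cells carrying it. The counts per cell were not examined for this.

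The autophagy receptor SQSTM1 (chr5:179806398-179838078, plus strand; GENCODE v29, GRCh38), which tethers ubiquitinated cargo to autophagosomes, showed the largest rise. Its levels, given here and throughout in the order of culture numbers 1, 2 and 3, were 167, 182 and 197 CPM in Ctrl and 552, 545 and 575 CPM in LPS cultures. Every LPS culture lay above every Ctrl culture, a 3.07-fold difference (log2 1.62, SE 0.07, adjusted p = 1.55e-10). Under the inhibitor the gene stood at 156, 165 and 177 CPM without LPS and 534, 604 and 615 CPM with it, a 3.52-fold difference (log2 1.82, SE 0.07, adjusted p = 4.72e-11). These groups did not overlap either. The gene's span overlaps MGAT4B and MRNIP on the opposite strand in that annotation, and 1 pseudogene carries its name.

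The 3 transcription factors did not move together. TFEC (chr7:115935148-116159896, minus strand), the family member whose expression is largely restricted to macrophages and related cells, stood at 92.8, 94.5 and 95.3 CPM in Ctrl and at 187, 175 and 171 CPM in LPS cultures (1.89-fold, log2 0.92, SE 0.04, adjusted p = 4.35e-10). TFEB (chr6:41683978-41736259, minus strand), the best known activator of the CLEAR network, was at 10.5, 11.4 and 11.3 CPM in Ctrl and 14.9, 15.4 and 14.2 CPM in LPS cultures (1.34-fold, log2 0.42, SE 0.08, adjusted p = 0.000285). MITF (chr3:69739435-69968337, plus strand), known for its role in pigment cells and also active in osteoclasts and mast cells, went the other way. It was at 41.4, 52.2 and 46.5 CPM in Ctrl and at 15.9, 21.5 and 20.6 CPM in LPS cultures, 0.414 of the control level (log2 −1.27, SE 0.13, adjusted p = 1.11e-06). For all 3 genes the Ctrl and LPS cultures were fully separated. The fourth family member TFE3, from a list of other lysosomal genes, stood at 24.9 ± 0.391 CPM in Ctrl and 26.7 ± 1.02 CPM in LPS cultures (SD, n = 3) and was not called (log2 0.10, adjusted p = 0.112).

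**Figure D1:**
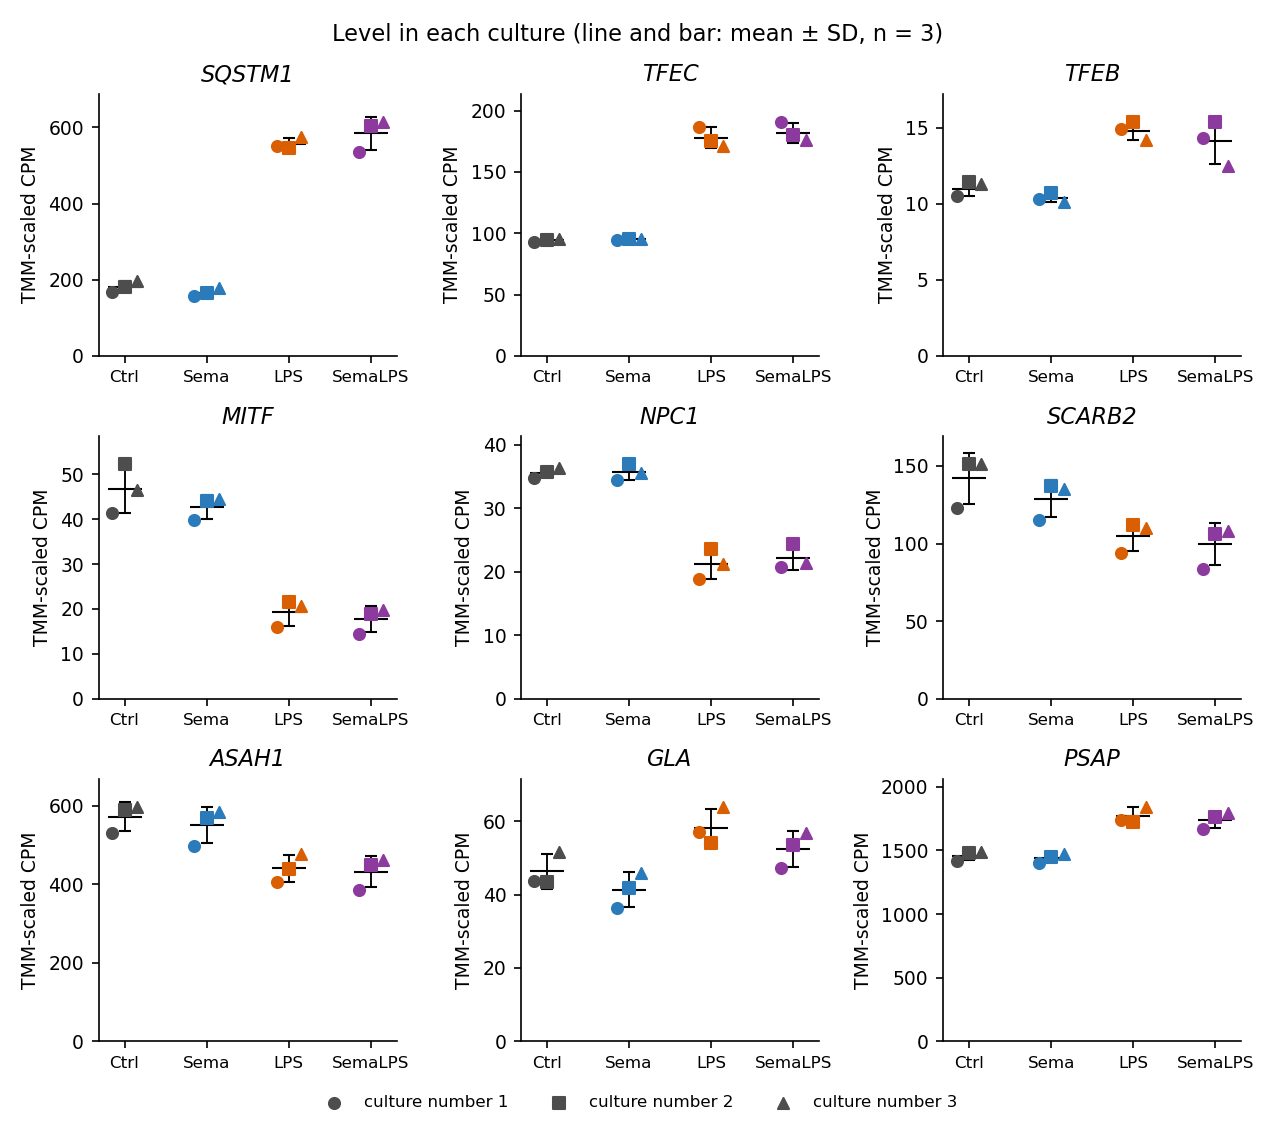
Levels of 9 lysosomal genes in each of the 12 cultures, in TMM-scaled CPM on axes that start at 0. Points are cultures (circle, square and triangle for numbers 1, 2 and 3), and lines with bars give the mean ± SD of 3 cultures. SQSTM1, TFEC and TFEB are higher in every culture with LPS than in every culture without it, MITF and NPC1 are lower, and the inhibitor groups lie beside their controls.

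Among the membrane proteins 5 of 6 fell and none rose, where 28.8% of all genes fell and 30.3% rose. NPC1 (chr18:23506184-23586898, minus strand), which exports cholesterol from the lysosome, fell most, from 34.8, 35.7 and 36.3 CPM in Ctrl to 18.9, 23.6 and 21.2 CPM in LPS cultures (0.597 of the control level, log2 −0.75, SE 0.07, adjusted p = 1.16e-06). The lumenal cholesterol carrier NPC2, which hands its cargo to NPC1, was at 1050, 1080 and 1070 CPM in Ctrl and 1020, 1010 and 1100 CPM in LPS cultures. Those groups overlapped and the test gave no call (log2 −0.03, adjusted p = 0.537). SCARB2 (chr4:76158733-76234536, minus strand), the receptor that carries glucocerebrosidase to lysosomes, was at 123, 151 and 151 CPM in Ctrl and 94.1, 112 and 110 CPM in LPS cultures (log2 −0.43, SE 0.11, adjusted p = 0.00381). MCOLN1, the lysosomal calcium channel, was at 22.1, 22.2 and 23 CPM in Ctrl and 18.5, 19.2 and 19.5 CPM in LPS cultures (log2 −0.23, SE 0.06, adjusted p = 0.00279). All LPS cultures were below all Ctrl cultures for NPC1, SCARB2 and MCOLN1. LAPTM5, a membrane protein of blood-cell lysosomes, fell by 0.20 on the log2 scale. LAMP1 fell by 0.16 with overlapping cultures (adjusted p = 0.0435). Its call was lost with DESeq2 and when LPS-1 (log2 −0.11), Ctrl-2, Ctrl-3, LPS-3 or SemaLPS-2 was left out. LAMP1 also lost its call with both other hashtag assignments, with up to 20% mitochondrial UMIs and in library 2 alone. Its companion LAMP2 stood at 156 to 167 CPM in Ctrl and 166 to 180 CPM in LPS cultures. LAMP2 was not called (log2 0.09, adjusted p = 0.101), was called higher with the culture number as a block (adjusted p = 0.0125), and was called lower with library totals alone (log2 −0.12).

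Of the 12 hydrolases 7 fell, 1 rose and 4 were not called, where 28.8% of all genes fell and 30.3% rose. ASAH1, acid ceramidase, was at 530, 589 and 596 CPM in Ctrl and 406, 439 and 476 CPM in LPS cultures, with no overlap (0.77 of the control level, log2 −0.38, SE 0.08, adjusted p = 0.00105). CTSA, which protects β-galactosidase and sialidase in a complex, was at 92.9, 96.9 and 95 CPM in Ctrl and 77.3, 77.8 and 85.3 CPM in LPS cultures (log2 −0.24, SE 0.04, adjusted p = 0.000218). HEXA, the α subunit of β-hexosaminidase that breaks down ganglioside, fell by 0.24 on the log2 scale (SE 0.05, adjusted p = 0.000491). NEU1, the sialidase of the CTSA complex, fell by 0.19, TPP1, a peptidase, by 0.12, and PPT1, which removes palmitate from proteins, by 0.10. GLB1, the β-galactosidase of that complex, fell by 0.12 with an adjusted p of 0.043 and with overlapping cultures. The call of GLB1 was lost without LPS-1 (log2 −0.09), Ctrl-2, LPS-2, SemaLPS-2, Ctrl-3 or SemaLPS-3. That of PPT1 was lost without Ctrl-1, LPS-1, Ctrl-2 or LPS-2 (log2 −0.10 to −0.09). GLB1 also lost its call with DESeq2, without the filter on low counts, with another hashtag assignment and in library 1 alone. PPT1 also lost its call without that filter, with another hashtag assignment and in library 2 alone. GLA (chrX:101397803-101408012, minus strand), α-galactosidase A, was the hydrolase that rose. It was at 43.8, 43.4 and 51.7 CPM in Ctrl and 56.9, 54.1 and 63.8 CPM in LPS cultures, without overlap (1.26-fold, log2 0.33, SE 0.10, adjusted p = 0.00895). GAA, GUSB, MANBA and LIPA were not called, with log2 fold changes of −0.08, 0.03, −0.06 and −0.21. LIPA, lysosomal acid lipase, was at 482, 587 and 574 CPM in Ctrl and 425, 506 and 492 CPM in LPS cultures. These ranges overlapped, although the LPS culture was lower in each same-numbered pair, and with the culture number as a block LIPA was called lower (log2 −0.21, adjusted p = 3.41e-05). In GENCODE v29 LIPA overlaps IFIT1, IFIT2, IFIT3 and IFIT1B on the opposite strand, and GUSB has 11 pseudogenes of its name.

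Of the soluble cofactors, PSAP rose and the others were not called. PSAP (chr10:71816298-71851375, minus strand) encodes prosaposin, the precursor of the saposins that present sphingolipids to hydrolases. It was at 1420, 1480 and 1490 CPM in Ctrl and 1740, 1720 and 1840 CPM in LPS cultures, without overlap (1.21-fold, log2 0.27, SE 0.04, adjusted p = 3.65e-05). GRN, progranulin, which is processed to granulins in the lysosome, was at 512, 545 and 558 CPM in Ctrl and 483, 519 and 554 CPM in LPS cultures (log2 −0.05, adjusted p = 0.429). Its groups overlapped over most of their range.

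**Figure D2:**
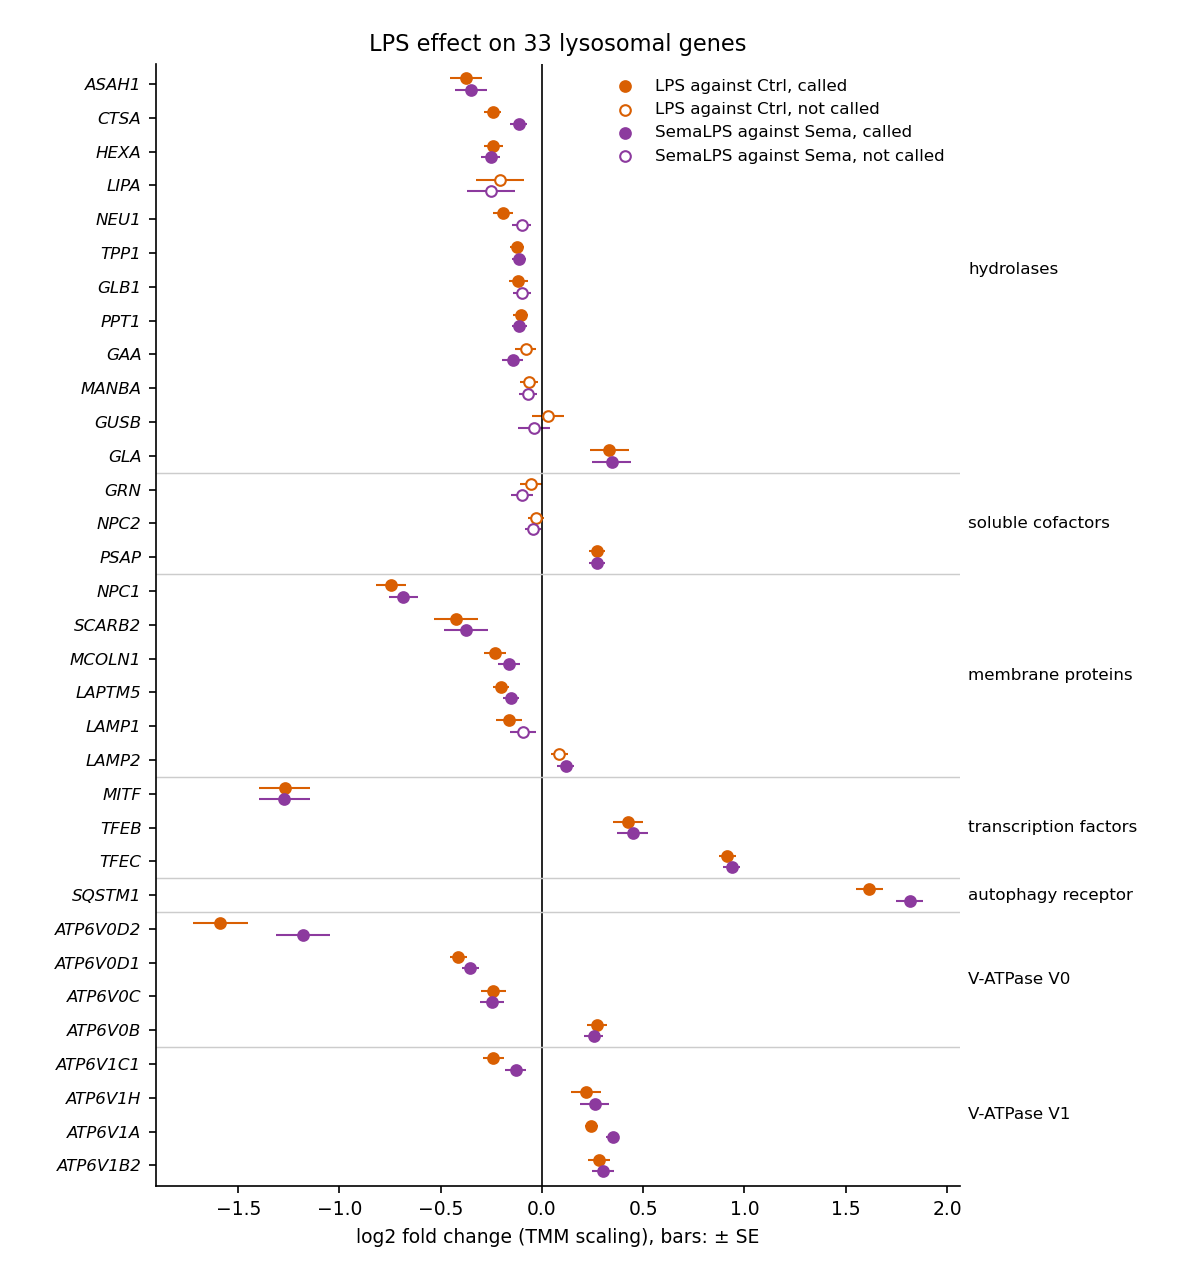
Log2 fold change with LPS of each of the 33 genes, grouped by role, without the inhibitor (orange) and under it (purple). Bars are ± SE and filled points passed an adjusted p of 0.05 in edgeR's quasi-likelihood test. SQSTM1 lies farthest to the right and ATP6V0D2 and MITF farthest to the left, and all other called genes lie between −0.75 and 0.94.

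The V-ATPase subunits split by sector in part. In the membrane sector V0, 3 of 4 measured subunits fell and 1 rose, beside 28.8% and 30.3% of all genes. ATP6V0D2, the d subunit isoform of osteoclasts and macrophages, was at 15.6, 17.7 and 20.5 CPM in Ctrl and 5.87, 5.91 and 6.12 CPM in LPS cultures, 0.333 of the control level (log2 −1.59, SE 0.14, adjusted p = 3.11e-07). The ubiquitous isoform ATP6V0D1 was at 135, 146 and 141 CPM in Ctrl and 103, 109 and 106 CPM in LPS cultures, 0.751 of the control level (log2 −0.41, SE 0.04, adjusted p = 1.87e-06). Both d isoforms were thus lower in every LPS culture than in any Ctrl culture. ATP6V0C, the proteolipid that forms the rotating ring, fell by 0.24 on the log2 scale. In GENCODE v29, 4 pseudogenes carry its name, and whether their reads were counted with it was not examined. ATP6V0B, the other proteolipid, was at 382, 396 and 405 CPM in Ctrl and 469, 457 and 503 CPM in LPS cultures (1.21-fold, log2 0.27, SE 0.05, adjusted p = 0.000246).

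In the V1 sector 3 of 4 rose and 1 fell, beside 30.3% and 28.8% of all genes. The catalytic A subunit ATP6V1A was at 105, 104 and 99.2 CPM in Ctrl and 122, 122 and 120 CPM in LPS cultures (1.18-fold, log2 0.24, SE 0.03, adjusted p = 2.34e-05). The B subunit ATP6V1B2, which pairs with A in the hydrolytic head, was at 180, 197 and 200 CPM in Ctrl and 226, 235 and 241 CPM in LPS cultures (1.22-fold, log2 0.28, SE 0.05, adjusted p = 0.000501). ATP6V1C1, the C subunit that links V1 to V0, was at 84.6, 88.4 and 90.8 CPM in Ctrl and 71.4, 70.4 and 81.6 CPM in LPS cultures (0.847 of the control level, log2 −0.24, SE 0.05, adjusted p = 0.00146). None of these groups overlapped. ATP6V1H, a regulatory subunit, rose by 0.22 (SE 0.07, adjusted p = 0.0226), a call that was lost in library 1 alone and without Ctrl-1, Ctrl-2 or LPS-3. With library totals alone, 4 of the 8 subunits fell and none was called higher. The rises of ATP6V0B, ATP6V1A, ATP6V1B2 and ATP6V1H against Ctrl were called relative to the bulk of genes and not relative to library totals. A list of 15 other V-ATPase genes held 6 that rose and 2 that fell, beside 30.3% and 28.8% of all genes. With library totals alone it held 1 and 10, beside 16.4% and 46.6%. In it DMXL2, part of the complex that assembles the pump, was at 55.3 ± 6.5 CPM in Ctrl and 112 ± 6.36 CPM in LPS cultures (SD, n = 3; log2 1.02, adjusted p = 1.64e-07), and ATP6V0E2 fell by 0.49 (adjusted p = 4.97e-05).

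**Figure D3:**
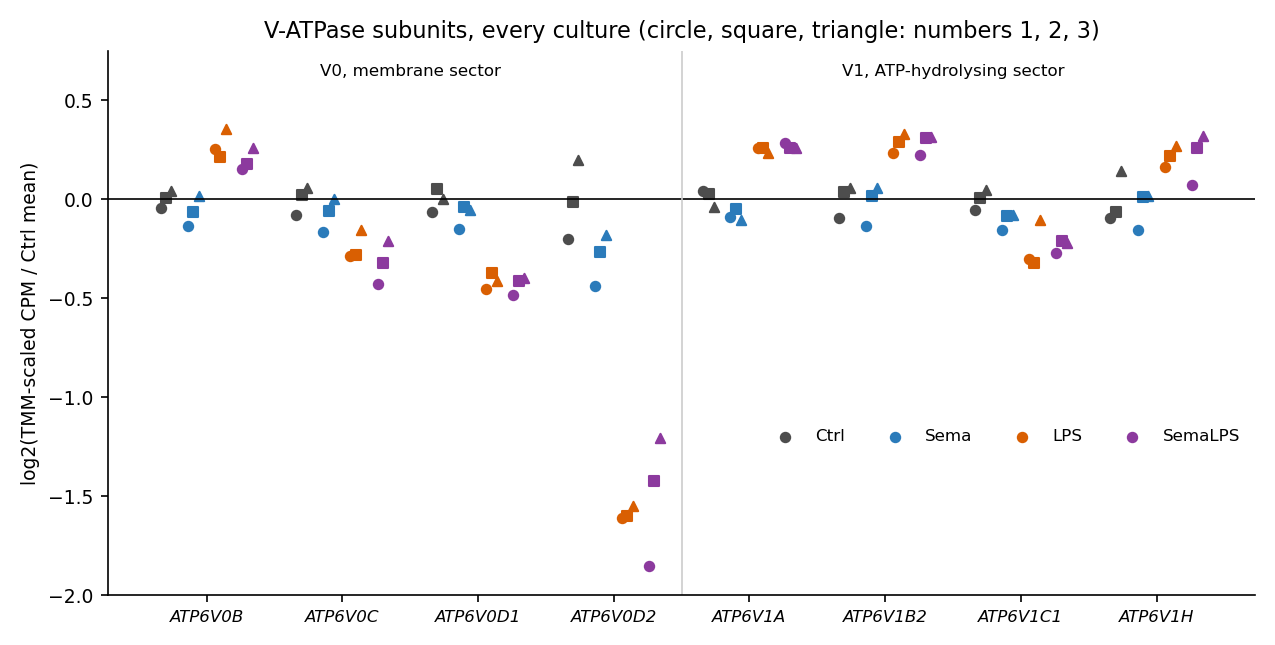
Level of each V-ATPase subunit in every culture relative to the mean of the 3 Ctrl cultures, on a log2 scale with TMM scaling, for V0 (left) and V1 (right). Symbols give the culture number. ATP6V0D2 lies below −1 in all 6 cultures with LPS, and ATP6V0D1 lies lower and ATP6V1A and ATP6V1B2 lie higher in all 6 than in the cultures without LPS.

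Most of the genes with CACGTG in their window fell with LPS. Of the 7, ATP6V0B rose and CTSA, NEU1, LAMP1, MCOLN1 and ATP6V0D1 fell, beside 30.3% and 28.8% of all genes. GAA was not called (log2 −0.08, adjusted p = 0.216). Of all 33 lysosomal genes 9 rose and 17 fell, and the 7 were not tested against the others. ATP6V0B was thus the only one with an estimate above 0, and its rise was not called with library totals alone (log2 0.065). The 5 genes with the longer form TCACGTGA, which ATP6V0B and NEU1 lacked, all had estimates under 0, as did 22 of all 33 genes. The windows held for SQSTM1, TFEC, TFEB, MITF and NPC1 had no CACGTG, which says only that these letters are not in those windows.

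LPS was also compared within the inhibitor-treated cultures. Between SemaLPS and Sema, 10 of the 33 genes rose and 15 fell, beside 61.1% of all genes called (30.9% rose and 30.2% fell), with a median of −0.10 for the 33 and −0.02 for all genes. At an unadjusted p under 0.05 stood 26 of the 33 and 64.7% of all genes. Cultures did not overlap for 10 higher and 17 lower genes, beside 33.4% and 33.3%. With the block 10 rose and 20 fell, beside 67.7% of all genes, and DESeq2 called 21, beside 24.2% higher and 21.1% lower. With library totals alone the split was 4 rose and 24 fell, beside 17.1% and 48.1% of all genes, and the median of all genes was −0.23. This comparison shares no culture with that of LPS against Ctrl. Called in the same direction in both were 23 of the 33 genes, beside 52.8% of all genes, and none was called in opposite directions, beside 0.0133% of all genes. NEU1, GLB1 and LAMP1 were called only without the inhibitor, GAA and LAMP2 only under it, and LIPA, GUSB, MANBA, GRN and NPC2 in neither. The difference between the comparisons is tested by the interaction, described with the inhibitor's effect.

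The largest changes in the inhibitor-treated cultures were those of the same genes. MITF was at 39.7, 44 and 44.5 CPM in Sema and 14.4, 18.8 and 19.8 CPM in SemaLPS cultures (log2 −1.27, SE 0.12, adjusted p = 9.71e-07). ATP6V0D2 was at 13.2, 14.9 and 15.8 CPM in Sema and 4.95, 6.68 and 7.76 CPM in SemaLPS cultures (log2 −1.18, SE 0.13, adjusted p = 4.42e-06). NPC1 was at 34.5, 36.9 and 35.6 CPM in Sema and 20.8, 24.3 and 21.4 CPM in SemaLPS cultures (log2 −0.68, SE 0.07, adjusted p = 2.11e-06). These 3 genes were lower in every SemaLPS culture than in any Sema culture. TFEC was at 94.4, 95.2 and 95.7 CPM in Sema and 191, 180 and 176 CPM in SemaLPS cultures (log2 0.94, SE 0.04, adjusted p = 3.03e-10). TFEB was at 10.3, 10.7 and 10.1 CPM in Sema and 14.3, 15.4 and 12.5 CPM in SemaLPS cultures (log2 0.45, SE 0.07, adjusted p = 0.000153). Both were fully separated. ATP6V1A was at 95.7, 98.7 and 94.8 CPM in Sema and 124, 122 and 122 CPM in SemaLPS cultures (log2 0.35, SE 0.03, adjusted p = 6.48e-07), again without overlap. Smaller calls were less stable. Those of CTSA, GAA, PPT1, LAMP2, MCOLN1 and ATP6V1C1 were each lost without 1 or another of the 6 cultures compared. In those fits log2 values were −0.16 to −0.09 for the genes that fell and 0.08 to 0.12 for LAMP2. The calls of CTSA, GAA, MCOLN1 and ATP6V1C1 were also lost with DESeq2 and with dividing cells left out. Without the dividing cells 10 of the 33 genes rose and 13 fell, beside 4468 and 4362 of 14557 genes tested.

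Among 111 other genes of the lysosome and autophagy, 32 rose and 35 fell with LPS against Ctrl, beside 30.3% and 28.8% of all genes. With library totals alone 14 rose and 72 fell, beside 16.4% and 46.6% of all genes. The counts by list below, without library totals, have the same background of 30.3% and 28.8%. Other hydrolases and cofactors showed 5 rises and 10 falls among 26. In that list PLA2G15, a lysosomal phospholipase, dropped from 48.2 ± 3.55 CPM to 13.6 ± 0.82 CPM (SD, n = 3; log2 −1.83, adjusted p = 6.94e-09), and ACP2, an acid phosphatase, rose by 0.93 on the log2 scale. Of 19 other membrane proteins 2 rose and 9 fell; LAMP3, a LAMP of activated dendritic cells, went from 1.88 ± 0.453 CPM to 78 ± 9.84 CPM (SD, n = 3; log2 5.37, adjusted p = 2.82e-12), and TPCN1, an endolysosomal cation channel, fell by 0.71. Genes of delivery to the lysosome showed 4 rises and 6 falls among 15, and the sorting receptor SORT1 fell by 0.77 on the log2 scale. Nutrient sensing at the lysosome gave 7 rises and 3 falls among 18, with LAMTOR3 at log2 0.37 and RRAGD at −0.67. Autophagy genes gave 8 rises and 5 falls among 18; the receptor OPTN rose from 33.8 ± 2.45 CPM to 164 ± 3.99 CPM (SD, n = 3; log2 2.28, adjusted p = 4.1e-12), and GABARAPL2 rose by 0.42.

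Other features of the cultures moved with LPS. The macrophage and microglia markers did not move together. Between the Ctrl and LPS means, CSF1R went from 175 to 92 CPM and TREM2 from 505 to 324 CPM. C1QA went from 422 to 562 CPM and SPI1 from 223 to 400 CPM. The 7 homeostatic microglia markers summed to 529.2 to 689.1 CPM without LPS and 150.6 to 188.4 CPM with it. Of these, SALL1 had only 0 to 5 UMIs per culture and TMEM119 stood at 1.14 to 2.58 CPM. The 5 monocyte markers summed to 209 to 258.6 CPM without and 1085 to 1229 CPM with LPS, led by S100A9. The osteoclast list, relevant to ATP6V0D2 and MITF, summed to 46.04 to 69.91 CPM without and 78.69 to 128.9 CPM with LPS, led by MMP9 (32.3 to 114 CPM), while CALCR stayed at or under 0.146 CPM and OCSTAMP at or under 0.614 CPM. Cells over the mitochondrial limit, which were left out, were 31.11, 39.24 and 36.47% of Ctrl and 20.24, 24.25 and 31.75% of LPS cultures, lower with LPS in each same-numbered pair. Among kept cells the median mitochondrial share was 8.22 to 8.39% in Ctrl and 7.79 to 8.04% in LPS cultures. The part of these features in the LPS differences was not tested. Without the dividing cells, 9 genes rose and 19 fell, beside 29.8% and 28.6% of all genes in that fit, and the log2 fold changes of SQSTM1 (1.57), TFEC (0.92), TFEB (0.45), MITF (−1.36), NPC1 (−0.74) and ATP6V0D2 (−1.62) were close to those with all cells.

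Without LPS, the inhibitor moved no lysosomal gene past the threshold. Between Sema and Ctrl, 0 of 33 genes were called by edgeR without a block, 0 by DESeq2 (beside 0.0287% of its genes higher and 0.0862% lower), and 2 (ATP6V1A and ATP6V0D2) had an unadjusted p under 0.05, beside 0.0133% of all genes called and 7.17% at that unadjusted p. The 95% intervals of the 33 log2 fold changes reached from −0.56 to 0.17, the lower end being that of ATP6V0D2. The median was −0.05 for the 33 genes and 0.00 for all genes. Estimates under 0 were found for 23 of the 33, beside 49.7% of all genes and 52% of genes of at least 20 CPM. This lean depended on 1 culture in the fit without a block. With Sema-1 left out, 17 estimates lay under 0, and the median was −0.002 for the 33 genes and for all genes. With the culture number as a block and Sema-1 left out, 24 lay under 0, with a median of −0.034. In all 3 same-numbered pairs 19 genes were lower in the Sema culture, beside 19.6% of all genes and 26.2% of those of at least 20 CPM, and 3 (GRN, NPC2 and TFEC) were higher in all 3, beside 19.4% of all genes.

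All 8 V-ATPase subunits had estimates under 0 with the inhibitor, from −0.29 to −0.02. Of these, 7 were lower in all 3 pairs, and ATP6V1H in 2 of 3. Of the 23 V-ATPase genes, with those of the other list, 21 had estimates under 0 and 2 above, with a median of −0.07. None was called without a block. The largest was ATP6V0D2, at 15.6, 17.7 and 20.5 CPM in Ctrl and 13.2, 14.9 and 15.8 CPM in Sema cultures, ranges that overlapped narrowly (log2 −0.29, SE 0.13, adjusted p = 0.689). ATP6V1A, at 105, 104 and 99.2 CPM in Ctrl and 95.7, 98.7 and 94.8 CPM in Sema cultures, did not overlap (log2 −0.09, SE 0.03, adjusted p = 0.678). In all, 4 genes (CTSA, MCOLN1, ATP6V1A and ATP6V1C1) were lower and NPC2 was higher in every Sema culture than in any Ctrl culture, beside 6.69% and 6.8% of all genes.

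Same-numbered cultures deviated together, so the comparison was repeated with the number as a block. The calls were then 3, all lower: SCARB2, SQSTM1 and ATP6V0D2, beside 3.35% of all genes (1.83% rose and 1.52% fell). SCARB2 was at 123, 151 and 151 CPM in Ctrl and 115, 137 and 135 CPM in Sema cultures (log2 −0.13, SE 0.03, adjusted p = 0.0239). SQSTM1 was at 167, 182 and 197 CPM in Ctrl and 156, 165 and 177 CPM in Sema cultures (log2 −0.13, SE 0.03, adjusted p = 0.0419). ATP6V0D2 gave a log2 fold change of −0.30 (SE 0.07, adjusted p = 0.0298). The groups overlapped for each gene, and the Sema culture was the lower one in 3 of 3 pairs. These calls were not robust. None was left in library 1 alone, in library 2 alone, with dividing cells left out, or when any culture of number 2 or 3 of these conditions was omitted, and 1 was left without Sema-1. Calls over all genes dropped too, from 276 rises and 229 falls. They were 77 and 120 in library 1, 58 and 92 in library 2, and 75 and 104 without dividing cells. Without a culture of number 2 or 3 of these conditions they were 28 to 94 rises and 40 to 117 falls, and without Sema-1 they were 221 and 178. Dividing cells were more frequent in the Sema than in the Ctrl culture of each number. With these cells left out the 3 estimates were −0.12, −0.11 and −0.27. Of the 111 other genes, 5 fell with the block: ATP6V1G1, SLC17A5, OSTM1, IGF2R and GABARAPL1. GABARAPL1, an autophagosome protein, was at 74, 97.6 and 101 CPM in Ctrl and 60.5, 79.9 and 80.6 CPM in Sema cultures (log2 −0.30, adjusted p = 0.00128 with the block and 0.691 without).

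**Figure D4:**
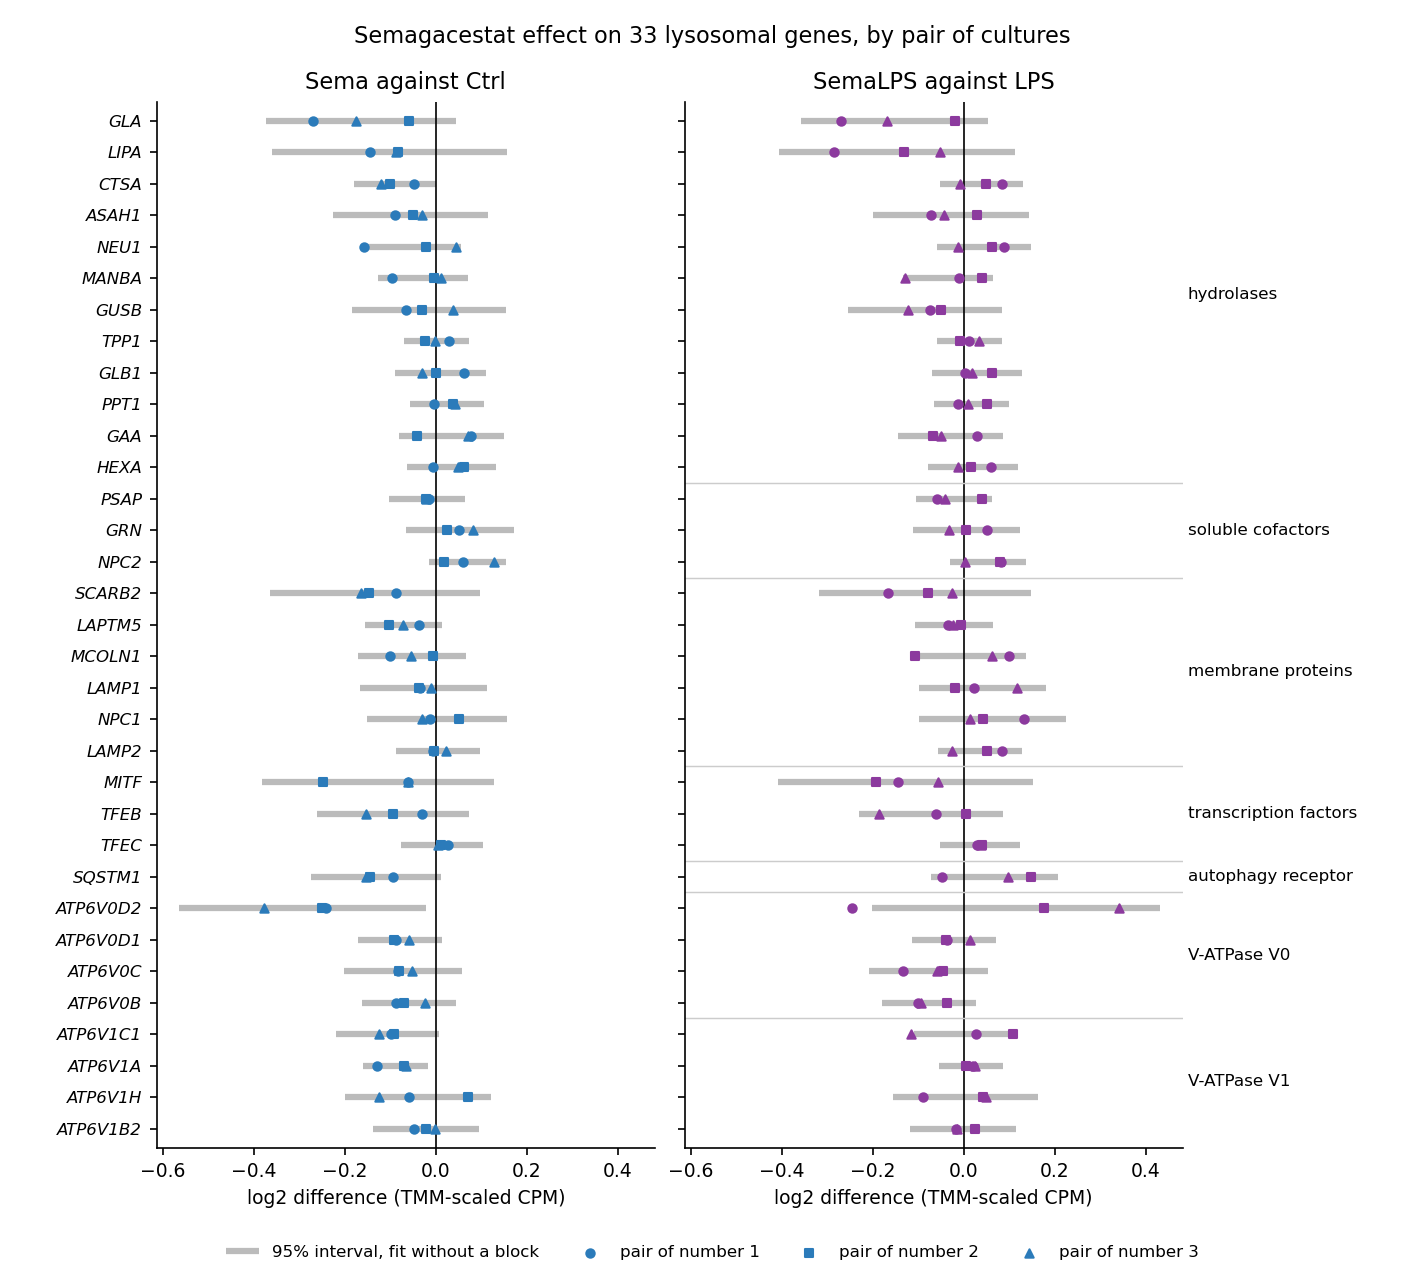
Log2 difference with semagacestat of each of the 33 genes in the 3 same-numbered pairs of cultures, without LPS (left) and with it (right), on TMM-scaled CPM. Grey bars are 95% intervals of the fit without a block. Without LPS 19 genes have all 3 pairs under 0, with LPS 8 do, and the grey bars lie between −0.56 and 0.43.

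Under LPS, the inhibitor's estimates were centred on 0. Between SemaLPS and LPS, 0 of 33 genes were called by edgeR or DESeq2 and 0 had an unadjusted p under 0.05, beside 0.0133% of all genes called by edgeR, 0.0465% higher and 0.0387% lower by DESeq2, and 5.6% at that unadjusted p. For no gene were the cultures of the conditions fully separated, beside 5.02% of all genes higher and 4.38% lower. The median was 0.00, 18 estimates lay above 0 and 15 under it, and the 95% intervals reached from −0.41 to 0.43. In all 3 pairs 8 genes were lower, beside 15.1% of all genes, and 5 were higher, beside 18.6%. With the number as a block 1 gene fell, LIPA, beside 2.08% of all genes (1.4% rose and 0.677% fell). LIPA was at 425, 506 and 492 CPM in LPS and 349, 462 and 475 CPM in SemaLPS cultures (log2 −0.15 with the block, SE 0.03, adjusted p = 0.0212, against 0.923 without it). The groups overlapped and the pair of number 1 differed most, by −0.28. The call was lost in library 1 alone, with dividing cells left out (log2 −0.09), and without LPS-1 (−0.12), SemaLPS-1 (−0.11) or SemaLPS-2 (−0.16). Calls over all genes dropped in these fits too, from 211 rises and 102 falls to 51 to 104 rises and 37 to 60 falls. GLA was lower with the inhibitor in all 3 pairs both without LPS (log2 −0.16, adjusted p = 0.757) and with it (−0.15, adjusted p = 0.893), and neither difference was called, with or without the block.

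Whether the inhibitor acted differently with LPS was tested by the interaction. No lysosomal gene passed, with or without the block, beside 0% of all genes without it and 0.0664% with it (0.0531% positive and 0.0133% negative), and 3 (CTSA, SQSTM1 and ATP6V1A) had an unadjusted p under 0.05 without it, beside 3.65% of all genes. The 95% intervals reached from −0.41 to 0.82. SQSTM1, with an estimate under 0 for the inhibitor without LPS and one above 0 with it (log2 −0.13 and 0.07), had the lowest adjusted p with the block (interaction 0.20, adjusted p = 0.184). For ATP6V0D2 the interaction was 0.41 (SE 0.11, adjusted p = 0.287 with the block; SE 0.19, adjusted p = 1 without it). Its SemaLPS cultures, at 4.95, 6.68 and 7.76 CPM, spread more widely than the LPS cultures at 5.87, 5.91 and 6.12 CPM.

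Many of these genes also differed by culture number. In cultures of number 1 against numbers 2 and 3, tested with condition in the fit, 21 of 33 genes were lower and 0 higher, beside 7.7% of all genes lower and 8.68% higher. The median was −0.08 for the 33 genes. By condition it was −0.09 in Ctrl, −0.10 in Sema, −0.07 in LPS and −0.085 in SemaLPS cultures, and 28 to 32 of the 33 genes were lower in number 1. LIPA showed the largest difference (log2 −0.31, SE 0.02, adjusted p = 8.62e-07); its number 1 cultures, at 482, 436, 425 and 349 CPM in Ctrl, Sema, LPS and SemaLPS, were each the lowest of their condition. MITF (−0.29), SCARB2 (−0.28), ATP6V0D2 (−0.27) and ASAH1 (−0.20) followed. Also lower were GLA (−0.16), GRN (−0.11), PSAP (−0.06), LAMP1 (−0.15), NPC1 (−0.12), SQSTM1 (−0.13) and, among V-ATPase subunits, ATP6V0C (−0.12), ATP6V0D1 (−0.08), ATP6V1B2 (−0.12) and ATP6V1H (−0.15). TFEB, TFEC and CTSA were not called. Number 1 cultures also had the highest share of dividing cells in every condition, 20.27 to 33.22% beside 16.97 to 30.98% in the others, and the lowest share of cells over the mitochondrial limit within each condition. Without dividing cells the median was −0.07 and 11 genes were lower, beside 4.52% of all genes lower and 4.18% higher in that fit.

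**Figure D5:**
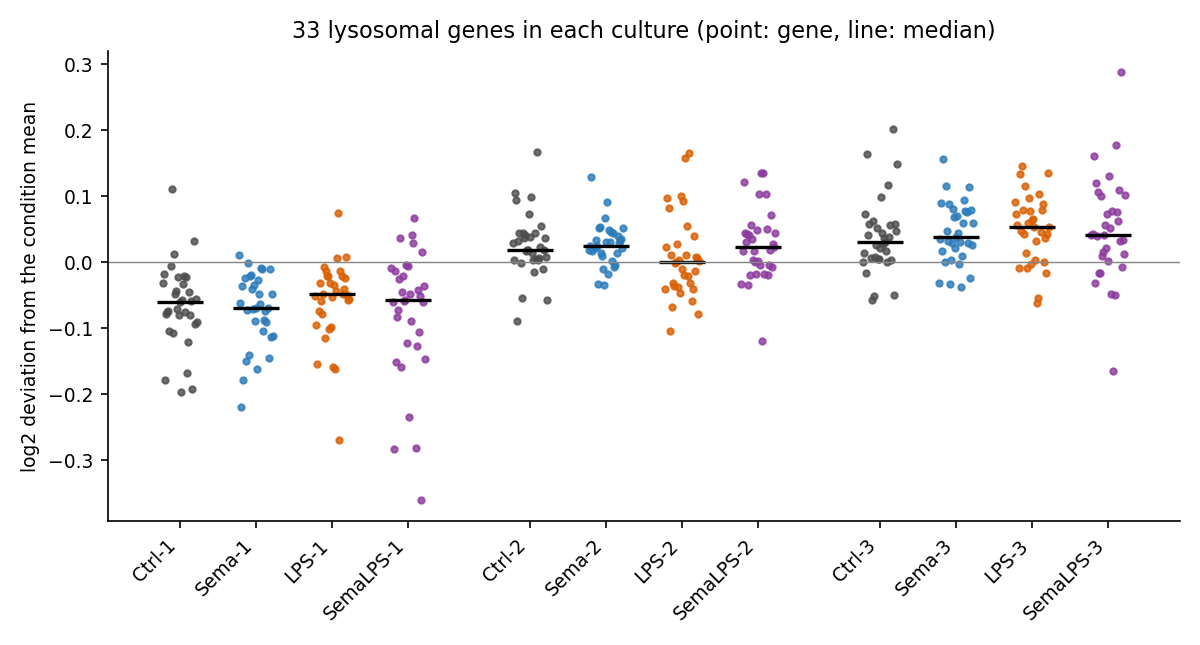
Deviation of each of the 33 genes from the mean of its condition in every culture, in log2 units of TMM-scaled CPM, ordered by culture number. Points are genes and black lines are medians. All 4 cultures of number 1 have medians under 0, whatever the condition, and the medians of the other 8 cultures lie at or above 0.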

How the data were processed

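The files hold raw UMI counts per gene and hashtag for each cell barcode, as deposited by the authors: Cell Ranger 6.0.1 made them per the file headers, while the submitters' processing notes name Cell Ranger 3.0.2, Seurat 4.1.1 and hg38. For the gene annotation, the release was not given in the sources used here. Barcodes were assigned to cultures from the hashtag counts (k-means with 13 clusters, negative binomial 99% quantile of the background). Those with more than 1 hashtag (23.66%) were left out as doublets, and cells were kept from 1000 detected genes upward and up to 10% of UMIs from mitochondrial genes; 10 kept barcodes occur in both libraries. Counts were summed per culture and tested with edgeR 4.0.16 (R 4.3.3; TMM, quasi-likelihood F test, 12 cultures in 1 fit, Benjamini-Hochberg adjusted over 15056 genes); SE is the log2 fold change over the square root of F. The scripts were tested on simulated data, where 83 of 100 genes changed 1.25-fold were recovered for Sema against Ctrl. Another 100 genes were changed 2-fold in that simulation, which gave 191 calls. The real comparison without a block gave 2 calls among 15056 genes. Adjusted p-values depend on how many genes change, so the share recovered is a check of the scripts only. It does not give the power to detect a change in the lysosomal genes. Same-numbered cultures deviated together from their condition means over 5279 genes (r 0.448 to 0.745; other numbers −0.563 to 0.172), and this pairing comes from the data, not from the labels. Alternatives were DESeq2 1.42.0, the number as a block, other scaling, cells and hashtag assignments, and leaving out each culture. The genes and lists were chosen with earlier results of these data known. Values are given in full for up to 3 called genes per role with the largest change, for genes called with the inhibitor in either fit, and for up to 2 other genes per list with the smallest adjusted p; any further gene named, such as NPC2, TFE3 and GABARAPL1 per culture, was chosen after its values were seen. One gene that this rule names is not reported here. Positions come from GENCODE 29, which held 94.58% of the gene IDs.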

Additional observations from a re-analysis of the deposited data

How the results depend on the processing

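Without a block the inhibitor gave 0 calls among the 33 genes in both comparisons. With the culture number as a replicate block the counts were 3 for Sema against Ctrl and 1 for SemaLPS against LPS. Combined with further choices, added after seeing the data, the blocked count for Sema against Ctrl was 0 in library 1 only, 0 in library 2 only and 0 without dividing cells, and leaving out 1 culture at a time gave 0 to 4. For SemaLPS against LPS it was 2 with library totals only, 2 with up to 20% mitochondrial UMIs, 0 in library 1 only and 0 without dividing cells, and 0 to 2 when 1 culture was left out. LAMP2 reversed with library totals only, to −0.12 for LPS against Ctrl and −0.093 for SemaLPS against Sema. The median difference of number 1 cultures was −0.10 within Sema and −0.066 with library totals only. Leaving out 1 culture gave 22 to 26 calls for LPS against Ctrl and 20 to 27 for SemaLPS against Sema. Where values moved, the cause was not tested. Each gene had at least 183 UMIs in every culture, and 3 cultures of 1 line per condition limit the precision.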
